A study of Mus musculus with 24 samples.

Results

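Nr4a1, Nr4a2 and Nr4a3 and a set of genes of the cAMP pathway were followed in the tibialis anterior (TA) muscle of mice after photobiomodulation therapy (PBMT) and after running. The 9 genes, chosen by name, are Nr4a1, Nr4a2, Nr4a3, Sik1, Crem, Crtc2, Crtc3, Pde4b and Pde4d, and each was found by its GENCODE symbol among the 55487 genes listed. All 9 passed the filter on low counts in every comparison. RNA was taken from 24 male C57BL/6J mice of wild-type genotype, 5 to 7 weeks old, with 6 mice in each of 4 groups. The sedentary groups did not run, whereas the fatigued groups ran on a treadmill to exhaustion and their tissue was taken directly afterwards. PBMT was 830 nm LED light on the lower limbs (25 mW/cm2, 30 J/cm2, 20 min) under anesthesia, 24 h before dissection of the left TA, and the controls had the same shaving and anesthesia but no light. No group had a sham lamp, so light and any warmth from it cannot be told apart. Sequencing was done as 1 project for sedentary and another for fatigued muscle, so a difference between exercise states cannot be told apart from a difference between projects.

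The Nr4a genes encode orphan nuclear receptors whose transcripts are made within minutes to hours of a stimulus. In muscle they respond to contraction and to hormones that raise cAMP, and they act on genes of glucose and fat use. A rise in cAMP activates protein kinase A, which leads to phosphorylation of CREB and to entry of the CRTC coactivators into the nucleus. Sik1 is a CREB target whose kinase phosphorylates CRTC proteins and holds them in the cytoplasm. Crem encodes CREB-like activators and, from an internal promoter, a short repressor. Pde4b and Pde4d encode phosphodiesterases that break down cAMP.

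The libraries held from 43271093 to 46904076 counts in sedentary controls and from 46327516 to 52775844 in sedentary PBMT mice, and from 53122528 to 68726155 in the fatigued project. Totals were larger with PBMT in sedentary muscle (two-sided p = 0.00433 by exact permutation of 6 against 6 mice), and levels are given as CPM, which are counts scaled to the TMM-normalized library size. The scarcest of the 9 genes, Nr4a2, had 30 counts in its lowest mouse, and Nr4a1 had at least 3925. 1 library stood apart in its mitochondrial share. In sedentary control replicate 4, mitochondrially encoded transcripts made up 3.25% of counts, against 15.5% to 17.0% in the other sedentary controls 13.9% to 17.1% in the sedentary PBMT mice and 10.5% to 12.9% in the fatigued mice. The results called in sedentary muscle, and those of the 9 genes whose call, sign or overlap alters without this mouse, are therefore also given without it. The tissue label was checked with 8 markers of TA fibres, of which Myh4 was the most abundant. Their summed level was between 98200 and 160000 CPM in the 24 mice. Sedentary control replicate 4 stood apart here too, at 140700 CPM. The other sedentary controls were at 98200 to 110000 CPM and the sedentary PBMT mice at up to 123200 CPM. Of 4 markers of skin keratinocytes, 1 passed the filter, Krt10, and none of the 4 was at 0 in all mice. Their summed level was 25.5 CPM in sedentary PBMT replicate 4 and 9.15 CPM in replicate 2, against 1.16 to 5.27 CPM in the other 22 mice.

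Per kilobase of exon, Nr4a1 was the most abundant of the 9 genes in sedentary controls, at 61.8 ± 17.3 RPKM (SD, n = 6). Pde4d followed at 10.0 ± 1.86 RPKM and Pde4b at 7.19 ± 1.19 RPKM. Sik1 and Crtc2 were near each other, at 4.16 ± 0.703 and 3.80 ± 0.180 RPKM. Nr4a3 was scarce in sedentary controls, at 1.30 ± 0.913 RPKM, and Nr4a2 was the scarcest, at 0.283 ± 0.112 RPKM. In fatigued controls Nr4a3 stood next to Nr4a1, at 34.9 ± 13.7 against 101.4 ± 25.6 RPKM.

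**Figure D1:**
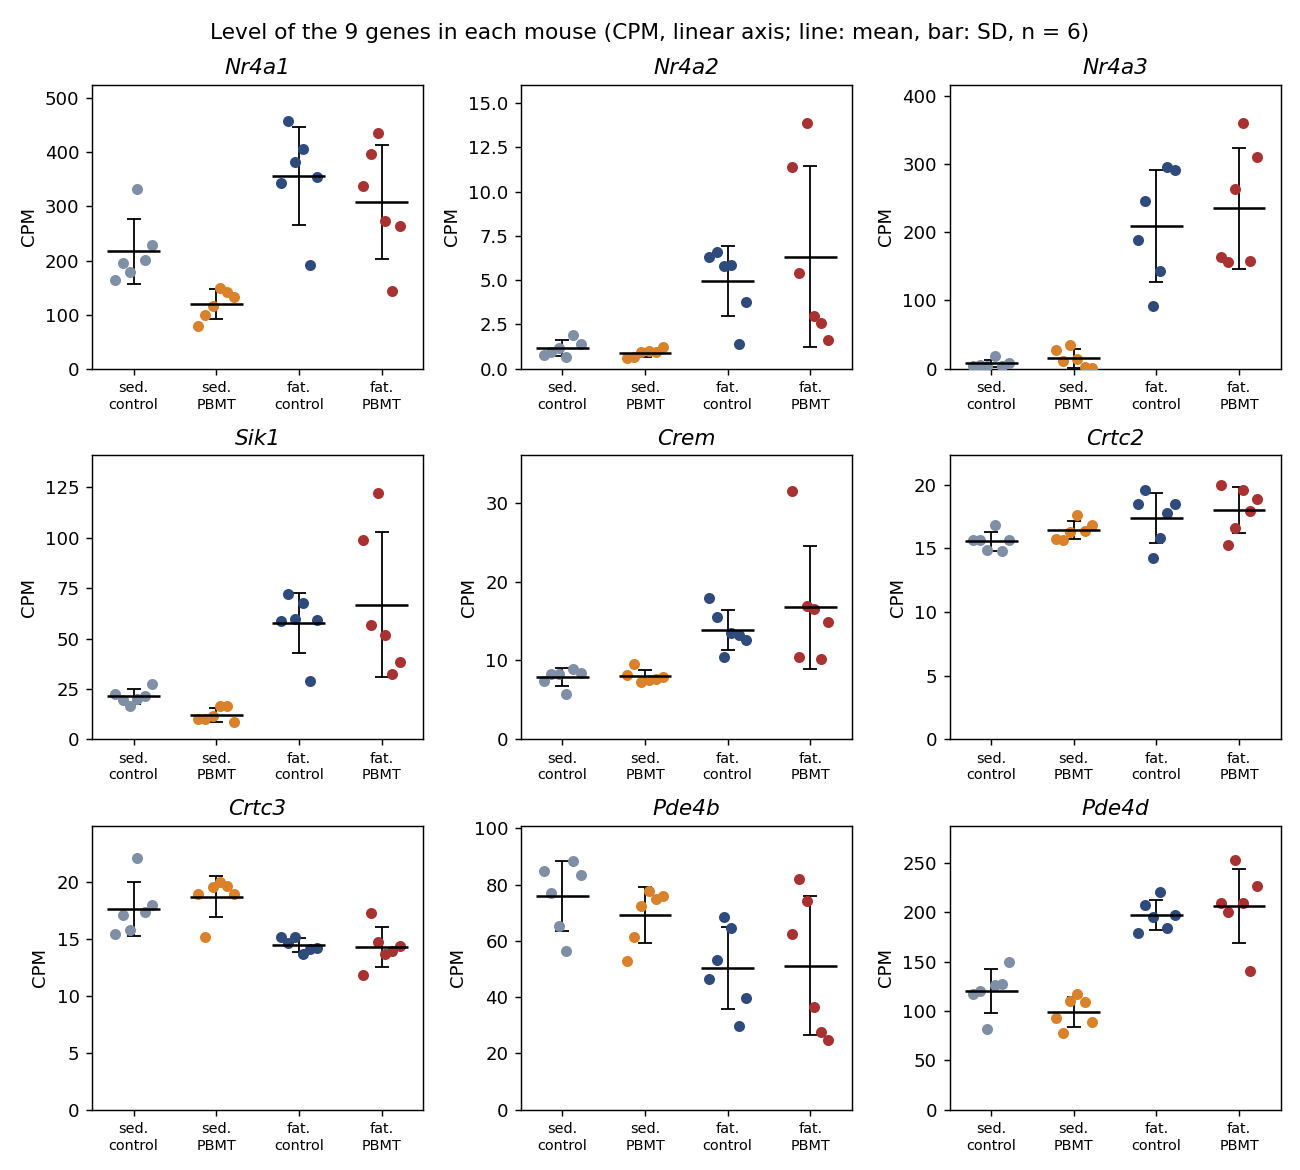
Level of each of the 9 genes in CPM on a linear axis, by group (sed. for sedentary, fat. for fatigued). Each point is 1 mouse, the horizontal line is the mean and the bar the SD of 6 mice. Nr4a1 and Sik1 of the sedentary PBMT mice lie below all sedentary controls, and Nr4a3 of all fatigued mice lies above all sedentary mice.

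The comparison of PBMT with control in sedentary muscle asks which transcripts differed a day after light without exercise. Nr4a1 and Sik1 had the clearest difference among the 9 genes, and for both every PBMT mouse was lower than every control mouse. Nr4a1 (ENSMUSG00000023034, chr15:101254269-101274795, plus strand of GRCm38) ranged from 164.1 to 332.3 CPM in controls, with a median of 198.5. In the PBMT mice it ranged from 78.6 to 149.6 CPM, with a median of 124.4. All 6 PBMT mice lay below the lowest control, and control replicate 4 held the highest value. edgeR gave a log2 fold change of -0.85 with a standard error of 0.173 (adjusted p = 0.1185).

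Sik1 (ENSMUSG00000024042, chr17:31844250-31855804, minus strand) ranged from 16.75 to 27.5 CPM in controls, with a median of 20.8, and from 8.64 to 16.67 CPM after PBMT, with a median of 10.9. Again all 6 PBMT mice lay below the lowest control, but the gap between the groups was narrow, with 16.67 CPM in PBMT replicate 4 and 16.75 CPM in control replicate 3. edgeR gave a log2 fold change of -0.80 with a standard error of 0.163 (adjusted p = 0.1133). Exact permutation of the 12 mice gave a two-sided p = 0.00216 for Nr4a1 and for Sik1 alike, the smallest value the arrangements allow, with no adjustment for the number of genes.

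None of the 9 genes passed an adjusted p of 0.05 in edgeR, where 0.0282% of the 14177 genes tested did. At an unadjusted p under 0.05 edgeR had 3 of the 9, namely Nr4a1, Sik1 and Pde4d, beside 7.63% of all genes. DESeq2 called 2 of the 9, Nr4a1 (adjusted p = 0.00121) and Sik1 (adjusted p = 0.00204), where it called 0.238% of the genes it tested as lower. The groups did not overlap, with PBMT lower, in these same 2 genes of the 9 and in 0.275% of all genes tested. The call for Nr4a1 and Sik1 thus depends on the tool. As given at the end, that for Nr4a1 also depends on the model and that for Sik1 on the mice included. Both genes were lower in every alternative run. Over the alternatives other than leaving out a mouse, the adjusted p ran from 0.00121 to 0.4819 for Nr4a1 and from 0.00204 to 0.626 for Sik1. Without control replicate 4, the log2 fold change was -0.69 for Nr4a1 (edgeR adjusted p = 0.161) and -0.82 for Sik1 (edgeR adjusted p = 0.1807).

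The groups of the other 7 genes overlapped in sedentary muscle, although those of Crtc2 did not without control replicate 4 (15.65 CPM in the highest of 5 controls, 15.67 CPM in the lowest PBMT mouse, edgeR adjusted p = 0.5827). The share of all genes with separate groups is not given for 5 against 6 mice, so nothing is read from this separation. Nr4a3 (ENSMUSG00000028341, chr4:48045153-48086447, plus strand) was the most variable. It ranged from 4.30 to 18.5 CPM in controls and from 1.35 to 34.9 CPM after PBMT, with medians of 5.41 and 13.1. PBMT replicates 1 and 3 were above all controls and replicates 5 and 6 below all controls, so the log2 fold change of 0.98 had a standard error of 0.710 (edgeR adjusted p = 0.7156). The highest control was replicate 4, without which PBMT replicates 1, 2, 3 and 4 were above all controls and the log2 fold change was 1.43 (edgeR adjusted p = 0.586). With each mouse left out the log2 fold change of Nr4a3 ran from 0.549 to 1.43, and in the other alternatives from 0.478 to 0.984. Nr4a2 (ENSMUSG00000026826, chr2:57106830-57124003, minus strand) was close to 1 CPM in both groups, at 1.15 ± 0.455 and 0.902 ± 0.229 (SD, n = 6 each), with a log2 fold change of -0.34 and of -0.46 without control replicate 4. Pde4d (ENSMUSG00000021699, chr13:108449948-109953461, plus strand) was at 120.3 ± 22.3 CPM in controls and 99.5 ± 15.2 CPM after PBMT, with a log2 fold change of -0.27 (standard error 0.127, edgeR adjusted p = 0.6484).

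Pde4b (ENSMUSG00000028525, chr4:102087543-102607259, plus strand), Crem (ENSMUSG00000063889, chr18:3266048-3337748, minus strand), Crtc2 (ENSMUSG00000027936, chr3:90254163-90264125, plus strand) and Crtc3 (ENSMUSG00000030527, chr7:80586627-80688877, minus strand) had log2 fold changes between -0.13 and 0.09 in sedentary muscle, and between -0.205 and 0.16 without control replicate 4, when Crem changed sign to -0.05. The counts are per gene, so the activators and the short repressor of Crem were not separated, nor were the long and short forms of the phosphodiesterases. Crem shares 472 exon bases with Gm6225 on the opposite strand, which had at most 15 counts in a mouse. Over the 9 genes the median log2 fold change was -0.13, beside 0.00 over all genes tested (-0.0019 unrounded).

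Markers of macrophages and leukocytes were also examined in sedentary muscle. All 6 had a log2 fold change below 0, with a median of -0.55 (-0.66 without control replicate 4). None of them passed the edgeR test after adjustment, and 2 had an unadjusted p under 0.05, beside 7.63% of all genes. Their summed level was 22.6 to 54.9 CPM in controls and 17.7 to 31.3 CPM after PBMT, so the groups overlapped, Mrc1 was the most abundant, and none was at 0 in all mice. All 5 markers of interstitial fibroblasts were below 0 as well, with a median of -0.18 (-0.27 without control replicate 4), and edgeR called none of them, with 0 at an unadjusted p under 0.05. In bulk tissue, fewer cells of a type and less RNA per cell cannot be told apart, and the part of these cells in the lower Nr4a1 and Sik1 was not tested.

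The comparison of PBMT with control in fatigued muscle asks whether light a day before running altered the transcripts present after it. The mice ran to exhaustion, so the length of the run was not fixed, and an effect of light cannot be told apart here from one of run duration. The same holds for the difference between the PBMT effects and where the states are compared after PBMT. None of the 9 genes was called by edgeR or by DESeq2, none had an unadjusted edgeR p under 0.05, and edgeR called 0.0% of all 14574 genes tested, with 230 at an unadjusted p under 0.05 and 2 called by DESeq2. Nr4a1 was at 355.9 ± 89.9 CPM in controls and 308.3 ± 105.3 CPM after PBMT (SD, n = 6 each). Its log2 fold change was -0.21 with a standard error of 0.255 (edgeR adjusted p = 0.9998), and ran from -0.332 to -0.0604 with a mouse left out. Sik1 was at 57.7 ± 15.0 CPM and 66.8 ± 35.8 CPM, with a log2 fold change of 0.21 (standard error 0.332). Nr4a2 was at 4.95 ± 2.00 CPM and 6.32 ± 5.12 CPM, and Nr4a3 at 209.2 ± 82.1 CPM and 235.3 ± 88.7 CPM. In none of the 9 genes were the groups separate, where 0.0274% of all genes had groups that did not overlap. The standard errors of 6 of the 9 genes were larger than in sedentary muscle, among them Pde4b (0.322 against 0.120), Crem (0.249 against 0.110), Nr4a2 (0.533 against 0.261) and Sik1 (0.332 against 0.163), whereas those of Nr4a3 (0.310 against 0.710), Crtc3 and Pde4d were smaller.

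A fit to all 24 mice asked whether PBMT acted differently on fatigued than on sedentary muscle. The difference was past the adjusted threshold for none of the 9 genes in edgeR or in DESeq2, beside 0.00662% of all genes in edgeR. Sik1 had the only unadjusted edgeR p under 0.05 among them, beside 4.40% of all genes. Its log2 difference was 1.01 with a standard error of 0.393 (edgeR adjusted p = 0.946). Nr4a1 had 0.65 with a standard error of 0.330 (edgeR adjusted p = 0.946). The lower level of Nr4a1 and Sik1 in sedentary muscle was therefore not shown to differ from the effect in fatigued muscle.

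**Figure D2:**
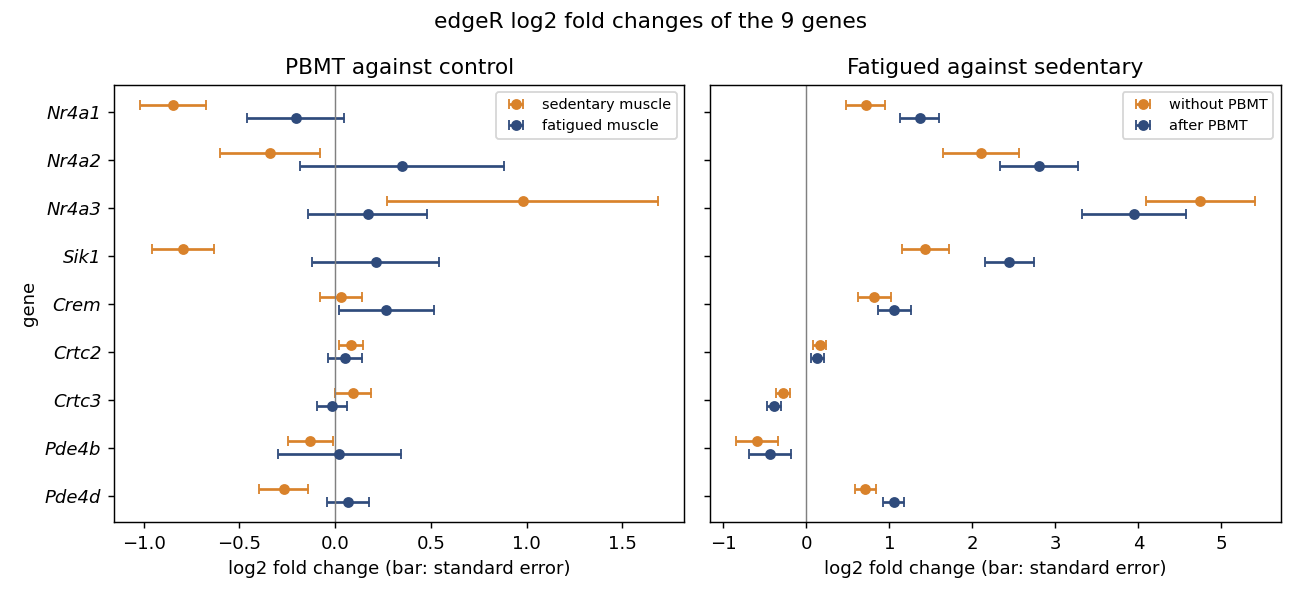
edgeR log2 fold changes of the 9 genes with their standard errors as bars, for PBMT against control (left) and for fatigued against sedentary muscle (right). Nr4a1 and Sik1 lie at -0.85 and -0.80 in sedentary muscle, and Nr4a3 has the largest log2 fold change on the right, at 4.75 without PBMT and 3.95 after it.

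Between exercise states most of the 9 genes differed. In edgeR, Nr4a3 was higher in fatigued muscle by 4.75 ± 0.654 on the log2 scale without PBMT (estimate ± standard error, adjusted p = 4.71e-05) and by 3.95 ± 0.6252 after PBMT (adjusted p = 1.03e-04). Without sedentary control replicate 4 the former was 5.20. The lowest fatigued mouse for Nr4a3, at 92.5 CPM, was above the highest sedentary mouse, at 34.9 CPM. Nr4a2 was higher by 2.11 and 2.80 and Sik1 by 1.43 and 2.45 on the log2 scale. Nr4a1, the gene with the highest level at rest, was higher by 0.71 (edgeR adjusted p = 0.0361) and by 1.36 (edgeR adjusted p = 2.14e-04). These 2 comparisons do not share mice, but they do share the projects.

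Crem was higher in fatigued muscle by 0.82 (edgeR adjusted p = 0.00520) and 1.06 on the log2 scale, and Pde4d by 0.71 (edgeR adjusted p = 3.10e-04) and 1.05. Crtc3 was lower, by a log2 fold change of -0.28 (edgeR adjusted p = 0.0253) without PBMT and -0.39 (edgeR adjusted p = 0.00189) after it. Crtc2 and Pde4b were not called in either, and Crtc2, higher by 0.14 after PBMT, changed sign there when trends with length and GC content were removed. Pde4b was at 75.9 ± 12.6 CPM in sedentary and 50.4 ± 14.7 CPM in fatigued controls (SD, n = 6 each), with 4 of 6 fatigued mice below every sedentary control (edgeR adjusted p = 0.1083).

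Without PBMT, edgeR called 6 of the 9 genes higher, beside 9.1% of all genes tested, and 1 lower, beside 9.49%. After PBMT it again called 6 higher, beside 14.1%, and 1 lower, beside 12.7%. All fatigued mice lay above all sedentary mice in 4 of the 9 genes without PBMT (Nr4a3, Sik1, Crem and Pde4d), beside 4.08% of all genes, and in 5 after PBMT (those and Nr4a2), beside 5.98%. In Crtc3 all fatigued controls lay below all sedentary controls, beside 3.63% of all genes. The adjusted p of Nr4a1 without PBMT was close to the threshold. The call was lost when 10 of the 12 mice were left out singly (edgeR adjusted p up to 0.0802), without the filter on low counts and when trends with length and GC content were removed, while the log2 fold change stayed between 0.61 and 0.87 in the alternatives. Without sedentary control replicate 4 it stood (log2 fold change 0.87, edgeR adjusted p = 0.00992), whereas the call for Crtc3 was then lost (edgeR adjusted p = 0.0554).

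Markers of other cells also differed between the states. After PBMT, edgeR called 5 of 6 markers of macrophages and leukocytes and 5 of 5 markers of interstitial fibroblasts higher in fatigued muscle, beside 14.1% of all genes, with median log2 fold changes of 1.06 and 0.83. Summed macrophage markers were 17.7 to 31.3 CPM in sedentary and 26.4 to 94.3 CPM in fatigued PBMT mice. Summed fibroblast markers, led by Col3a1, were 502.3 to 971.1 CPM and 811.6 to 3053 CPM. PBMT replicate 5, the lowest of the fatigued PBMT mice in Nr4a1 and Sik1, held both maxima, and the other 5 reached 59.1 and 1526 CPM. Without PBMT edgeR called none of these 11 markers, and 3 had an unadjusted p under 0.05, beside 32.2% of all genes. Without sedentary control replicate 4 it called 1 higher (Col1a1, named after its values were seen), beside 11.97% of all genes. Of the 8 TA fibre markers 4 were called higher without and 3 after PBMT, and of 5 smooth muscle and pericyte markers, led by Rgs5, 2 in each, with none lower in these fits, beside 9.1% and 14.1% of all genes called higher. The other marker lists had at most 1 gene called in a direction. The part of these cells in the higher Nr4a transcripts was not tested.

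By mean level the groups fell in the order sedentary PBMT, sedentary control, fatigued PBMT and fatigued control for Nr4a1. Of the neighbours in that order, only sedentary PBMT and sedentary control did not overlap. For Sik1 the order was sedentary PBMT, sedentary control, fatigued control and fatigued PBMT, and the first 3 groups were each separate from the next, while the fatigued groups overlapped. For Nr4a3 and Crem the sedentary groups overlapped with each other, as did the fatigued groups, and the step between the states was clear of overlap. For Nr4a2, Crtc2 and Pde4b all neighbours overlapped. For Pde4d and Crtc3, only the sedentary and fatigued controls were separate among the neighbours.

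Spread between mice was largest for Nr4a3 and Nr4a2 among the 9 genes. The SD of log2 CPM within a group, averaged over the groups, was 0.990 for Nr4a3 and 0.742 for Nr4a2, beside a median of 0.2197 over 15108 genes. It was 0.465 for Sik1, 0.432 for Nr4a1 and 0.113 for Crtc2. Among fatigued mice the same individuals stood out in several genes. Control replicate 5 was the lowest of its group in Nr4a1 (192.4 CPM), Nr4a2 (1.42 CPM), Sik1 (29.1 CPM) and Pde4b (29.9 CPM) but the highest in Nr4a3 (295.1 CPM). It was also the lowest of its group in summed TA fibre markers (125900 CPM, others from 142500) and the highest in markers of endothelial cells, led by Cdh5 (380.2 CPM, others up to 314.4), and of macrophages and leukocytes (62.1 CPM, others up to 55.0), and their part in these levels was not tested. PBMT replicates 1 and 3 had the highest Nr4a2, at 11.4 and 13.9 CPM, and the highest Sik1, at 98.9 and 122.4 CPM.

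**Figure D3:**
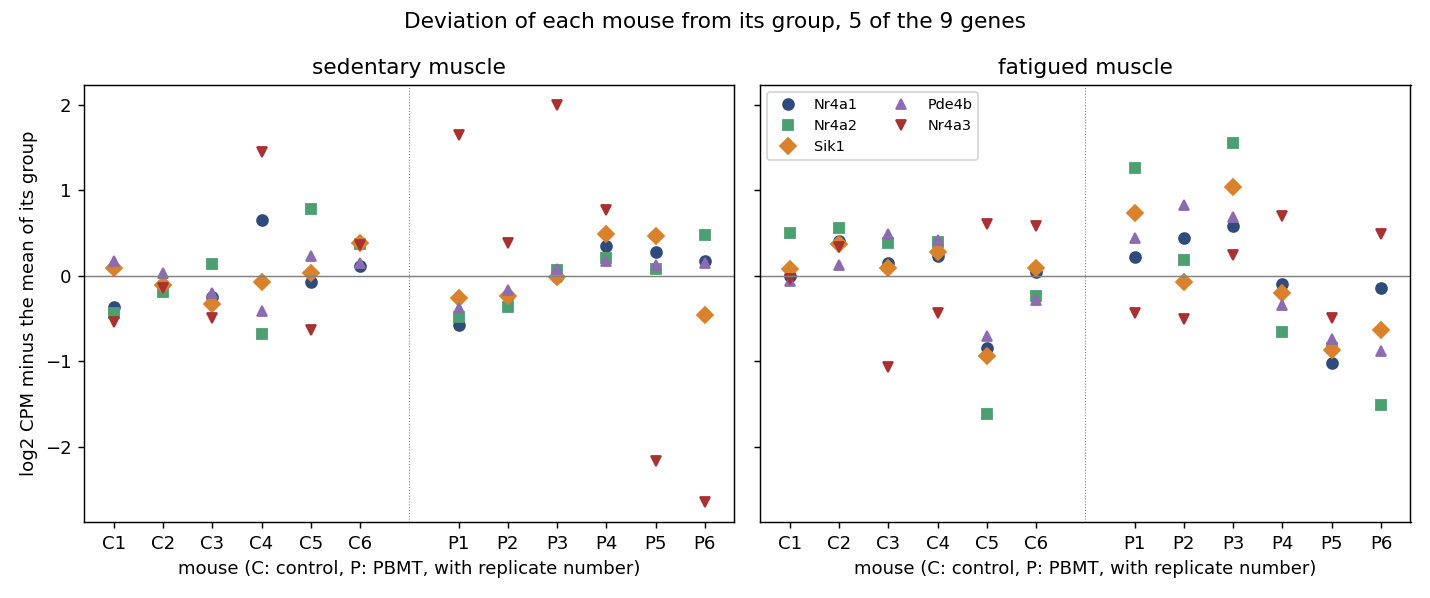
Deviation of log2 CPM from the mean of the mouse's own group, for 5 of the 9 genes in sedentary (left) and fatigued (right) muscle. Each symbol is 1 mouse and gene. In fatigued control replicate 5, Nr4a1, Nr4a2, Sik1 and Pde4b lie below 0 and Nr4a3 lies above it.

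After the mean of its own group was taken from each mouse, Nr4a2 and Pde4b varied together over the 24 mice (Pearson r = 0.836, Spearman rho = 0.794). The r was 0.707 in the sedentary and 0.858 in the fatigued project, and 0.755 without the 2 mice farthest from the median of Nr4a2. Nr4a2 and Sik1 had r = 0.804 (rho = 0.683, and 0.721 without those 2 mice), but 0.192 in the sedentary against 0.947 in the fatigued project. Nr4a1 and Sik1 had r = 0.734 (rho = 0.685, and 0.558 without the 2 mice farthest from the median of Nr4a1), with 0.412 and 0.859. Nr4a3 did not vary in the same direction as the other Nr4a genes, with r = -0.0896 for Nr4a1 and -0.314 for Nr4a2. Of all 36 pairs of the 9 genes, 8 had r above 0.5 and the median was 0.151. These values describe 24 libraries of 2 projects and carry no test.

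Outside the 9 genes, the transcripts most like Nr4a1 by this measure were Pim3 (r = 0.881, rho = 0.925), Mn1 (0.871), Per1 (0.870), Irs2 (0.858) and Bcl2l1 (0.850). For Sik1 they were Tsc22d3 (r = 0.883, rho = 0.879), Klhl2, Ell2, Per1 (0.851) and Ddit4. For Nr4a2 they were Fbxw7 (r = 0.892, rho = 0.834), Art1, Ccrl2, Dusp14 and Coq10b. Nr4a3 had other neighbours, namely Gm44717 (r = 0.814, rho = 0.849), Hk2 (0.797), Vegfa (0.796), Mreg and Phlda3. Hk2 encodes hexokinase 2 and Vegfa an angiogenic growth factor. Each was chosen as the highest of 15108 genes, so the size of r is not a test.

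The other genes of the cAMP pathway were described from lists of 93 genes in all, of which 85 passed the filter in sedentary and 86 in fatigued muscle. In sedentary muscle 1 of them passed the edgeR test between PBMT and control, beside 0.0282% of all genes. Nfil3, a transcriptional repressor listed as a CREB-responsive target, was at 31.9 ± 3.47 CPM in controls and 16.3 ± 2.80 CPM after PBMT (SD, n = 6 each). Its log2 fold change in edgeR was -0.96 with a standard error of 0.109 (adjusted p = 9.25e-04). It was also the 1 gene called for the difference between the PBMT effects (1.11 on the log2 scale, edgeR adjusted p = 0.00370). Without control replicate 4 it stayed called in both (-1.001 and 1.14), and Rgs2, named after its values were seen, was then called higher in sedentary muscle. The call of Nfil3 for the difference was lost with the replicate number as a block and length and GC trends removed. None of the 93 was called in fatigued muscle by edgeR. The median log2 fold change over the tested genes was 0.04 in sedentary and 0.00 in fatigued muscle (0.0046 unrounded).

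Of the CREB-responsive targets in sedentary muscle, Irs2 was at 22.5 ± 4.89 CPM in controls and 16.1 ± 1.91 CPM after PBMT, with all 6 PBMT mice below the controls (edgeR adjusted p = 0.2932). Per1, a clock gene, was at 93.4 ± 7.69 and 64.2 ± 19.0 CPM (edgeR adjusted p = 0.3514). Fos went the other way, at 4.80 ± 2.62 and 19.0 ± 12.7 CPM (edgeR adjusted p = 0.3488). Dusp1, Junb, Fosb and Ppargc1a, the coactivator of mitochondrial biogenesis, had adjusted p-values from 0.6521 to 0.7803. Among 26 other immediate early genes, Ccn1, Egr1 and Cited2 were called higher with PBMT in sedentary muscle, by 1.14, 2.98 and 0.66 on the log2 scale (edgeR adjusted p = 3.84e-04, 0.0139 and 0.0183), and none was called lower. They are all 3 of the genes called higher among the 14177 tested there. Of the 25 tested there, 12 were above and 13 below 0, with a median of -0.01. Without control replicate 4, Egr1 was no longer called (2.91, edgeR adjusted p = 0.0616), Ccn1 and Cited2 were, and Fosl2 was called lower (-0.38, edgeR adjusted p = 0.038). The fit to 24 mice called only 1 of all genes in sedentary muscle, and those without control replicate 1, 2 or 6 called 2. Ccn1, Egr1 and Cited2 were therefore not all called in those fits.

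Of the subunits of protein kinase A in sedentary muscle, the catalytic subunit Prkaca was at 95.0 ± 4.40 CPM in controls and 91.5 ± 3.11 CPM after PBMT, and the regulatory subunit Prkar1a at 161.3 ± 17.6 and 151.8 ± 17.5 CPM. Creb1, Crtc1, Sik2, Sik3, Pde3b and Pde4a had edgeR adjusted p-values of 0.6653 or more in sedentary muscle. Of 13 other cAMP phosphodiesterases tested, 12 had a log2 fold change above 0, with a median of 0.15, but 8 without control replicate 4, and edgeR called none.

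Between the states, 24 of the 86 tested pathway genes were called higher and 4 lower in fatigued muscle without PBMT, beside 9.1% and 9.49% of all genes. Without sedentary control replicate 4 these counts were 25 and 8, beside 11.97% and 12.72%. After PBMT 23 were called higher and 7 lower, beside 14.1% and 12.7%. Ppargc1a was higher by 2.10 and 2.05 on the log2 scale (edgeR adjusted p = 2.29e-04 and 1.61e-04) and Irs2, an adaptor of insulin signalling, by 1.62 and 2.34. Creb5 was higher by 1.34 and 1.31. Adcy4, an adenylyl cyclase, was higher by 1.05 and 1.17. Pkia, an inhibitor of protein kinase A, was lower, with log2 fold changes of -0.39 and -0.53 (edgeR adjusted p = 0.0200 and 0.00146). Hdac9, a class IIa deacetylase, was lower as well, at -0.97 and -1.74.

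Of 17 metabolic genes linked to Nr4a receptors in muscle, edgeR called 4 higher in each comparison of states, beside 9.1% and 14.1% of all genes, and none lower. Lpin1, a phosphatidate phosphatase, was at 345.2 ± 54.9 CPM in sedentary and 543.6 ± 45.4 CPM in fatigued controls (SD, n = 6 each), higher by 0.65 on the log2 scale (edgeR adjusted p = 9.25e-05). Ucp2, a mitochondrial carrier, was higher by 0.57 without and 1.27 after PBMT. Ucp3 was called only in the comparison after PBMT, at 1.18 (edgeR adjusted p = 6.80e-04), and the difference between the effects was not called for it (edgeR adjusted p = 0.946). Of the 26 other immediate early genes, 10 were called higher and 2 lower without PBMT, beside 9.1% and 9.49% of all genes, and 11 higher and 3 lower after it, beside 14.1% and 12.7%. Atf3 was higher by 4.28 and 5.00 and Maff by 2.05 and 3.33 on the log2 scale.

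Promoters are shown for the Nr4a receptors, which were all higher in fatigued muscle, to set the letters of the cAMP response element beside the values. The RefSeq table of GRCm38.p6 held 9 promoters for 6 of the 9 genes. The 250 bases before each start were searched on both strands for the core TGACG and its reverse complement, the full palindrome TGACGTCA, which contains the core, and the Nr4a monomer motif AAAGGTCA. Each Nr4a gene held 4 cores and no full palindrome. Of 32851 promoters, 17.8% held at least 1 core, 0.137% held at least 4, 1.55% the full palindrome and 1.34% the Nr4a motif. The count of 4 was set after these promoters had been seen. None of the 9 promoters held the Nr4a motif, and those of Crtc3 and Pde4d held no core. Below, capitals mark the cores, and for Nr4a3 only the bases before the first annotated exon are given, which leaves out 1 core. Nr4a1 is shown at chr15:101266596-101266845 (plus strand, inside the annotated gene but outside its exons), Nr4a2 at chr2:57124004-57124253 (minus strand) and Nr4a3 at chr4:48045055-48045152 (plus strand).
Nr4a1: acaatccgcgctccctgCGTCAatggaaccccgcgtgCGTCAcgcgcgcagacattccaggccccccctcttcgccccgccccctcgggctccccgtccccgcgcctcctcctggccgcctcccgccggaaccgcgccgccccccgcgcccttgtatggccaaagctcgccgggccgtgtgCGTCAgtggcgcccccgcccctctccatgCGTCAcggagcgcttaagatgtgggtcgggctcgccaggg
Nr4a2: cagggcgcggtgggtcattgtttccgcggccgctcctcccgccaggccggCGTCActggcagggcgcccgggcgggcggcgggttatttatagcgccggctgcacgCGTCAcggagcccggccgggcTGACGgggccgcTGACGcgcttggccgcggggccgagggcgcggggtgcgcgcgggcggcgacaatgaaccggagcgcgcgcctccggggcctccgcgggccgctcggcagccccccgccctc
Nr4a3: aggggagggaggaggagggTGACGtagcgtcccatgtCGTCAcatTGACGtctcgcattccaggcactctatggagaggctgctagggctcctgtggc
A match is a run of letters and not a measured site of binding.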

How the data were processed

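The 24 libraries were poly(A)-selected and directional, one per mouse, and the groups were taken from the sample labels. The authors deposited whole-number counts of reads per gene, with no normalization and no pooling. The submitters' processing notes name Trimmomatic, STAR 2.7.1a, Picard 2.20.4, StringTie 2.0.4, featureCounts 1.6.0, HTSeq and the build GRCm38. Which counter and strand setting gave the counts is not given in the sources used here, so antisense reads cannot be told apart. Of 55487 genes listed, 55227 matched GENCODE M21, which gave symbols, coordinates and lengths.

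PBMT was compared with control within each project (12 mice each) and the other comparisons were fitted to all 24 mice, with edgeR 4.0.16 in R 4.3.3: TMM normalization, filterByExpr with a minimum count of 10, robust quasi-likelihood tests, and p adjusted by the Benjamini-Hochberg method across the genes tested (threshold 0.05). log2 CPM used a prior count of 2. Exact permutation tests (scipy 1.17.1, two-sided) compared mean log2 CPM over all arrangements of the mice, without adjustment. The edgeR step was also run on counts simulated from the means and dispersions that edgeR took from these data. That run assumes the model, so it does not test how well the model fits these mice. Alternatives were DESeq2 1.42.0, its size factors, no filter, all 24 mice or only the 12 compared in the model, the replicate number as a block, loess trends (span 0.3) on length and GC content, and each mouse left out. No 2 libraries of a group were duplicates.

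The members and the gene lists were chosen with earlier results of these data known, so groups that do not overlap are no independent support. Named are the 9 members, 15 of 16 fixed genes of their pathway, up to 4 called genes per list and comparison, the most abundant marker of the lists described, and the 5 genes most like each Nr4a gene and Sik1. The lists of markers for other cell types not named here had no gene called between PBMT and control.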

Additional observations from a re-analysis of the deposited data

Results flagged for a closer look

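In 5 of the 36 sets of 6 mice (9 genes in 4 groups), 1 mouse lay far from the others, with a gap to its nearest neighbour that took up most of the range of the group. For independent values with a normal spread the rule would flag about 1 in 20 sets. CPM of several genes in the same mice need not follow that rate. Sedentary control replicate 4, the library with the low mitochondrial share, was at 18.5 CPM for Nr4a3, with the others from 4.30 to 8.63, and at 22.2 CPM for Crtc3, with the others from 15.5 to 18.0. Fatigued control replicate 5 was at 29.1 CPM for Sik1, with the others from 58.6 to 72.1. Fatigued PBMT replicate 1 was at 31.4 CPM for Crem, with the others from 10.1 to 17.0. Sedentary PBMT replicate 2 was at 15.2 CPM for Crtc3, with the others from 18.93 to 20.02. The causes were not tested.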

How the results depend on the processing

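The alternatives were set before any of the values given here was computed. Of the single-gene results of the 9 genes, 257 kept their direction and side of the threshold under settings other than leaving out a mouse, 5 crossed to the called side, 3 lost the call and 5 changed sign. With a mouse left out, the counts were 617, 2, 13 and 16. Every change of sign was in a gene not called in that comparison.

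PBMT against control in sedentary muscle had 0 of the 9 genes called by edgeR. DESeq2 called 2 (Nr4a1 and Sik1). With the replicate number as a block the count was 1, also with length and GC trends removed (Nr4a1, adjusted p = 0.00873 and 0.00275 in edgeR). With a mouse left out it was 0 to 1 (Sik1 without sedentary PBMT replicate 5, adjusted p = 0.0438 in edgeR). Of all genes, 4 were called in that comparison, 16 without the filter, 60 by DESeq2, 11 with the block, 16 with trends removed, 13 with both and 1 in the fit to 24 mice. The range with a mouse left out was 2 to 20 (20 without sedentary PBMT replicate 5, 18 without sedentary control replicate 4, 10 and 7 without sedentary PBMT replicates 2 and 4, and 2 without sedentary control replicates 1, 2 or 6). In fatigued muscle 0 of all genes were called, 2 by DESeq2, 1 with the block and 1 with block and trends. For the difference between the effects it was 1, 0 with block and trends, and 1 to 3 with a mouse left out (3 without sedentary PBMT replicate 2). The labels do not say whether replicate numbers pair the mice. Correlations between equal numbers ran from -0.0859 to 0.0843 in sedentary muscle, with 0 of 6 the best match, and from -0.103 to 0.342 in fatigued muscle, with 3 of 6. The block could not be run between states.

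The following log2 fold changes changed sign, none of them called. In sedentary muscle Crem was at -0.0056 with trends removed and -0.0059 with block and trends, and from -0.0468 to 0.0715 with a mouse left out. In fatigued muscle Pde4b was at -0.0737 with the block and -0.0809 with block and trends. Crtc2 between states after PBMT was at -0.0414 with trends removed. With a mouse left out, the ranges in fatigued muscle were Crem -0.0105 to 0.3759, Crtc3 -0.0801 to 0.03, Nr4a2 -0.0487 to 0.5503, Pde4b -0.1631 to 0.1632 and Sik1 -0.0504 to 0.3516. For the difference between the effects they were Crem -0.0423 to 0.3457, Crtc2 -0.0812 to 0.0128 and Pde4b -0.0329 to 0.2935. The causes were not tested.

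The call of Nr4a1 between states without PBMT was lost without the filter (adjusted p = 0.0773 in edgeR) and with trends removed (0.0941), and that of Crtc3 without the filter (0.0716) or without sedentary control replicate 4 (0.0554), fatigued control replicate 4 (0.0516) or 6 (0.0578). Pde4b was called there when only the 12 mice compared were fitted (adjusted p = 0.0358 in edgeR), and Crtc2 without fatigued control replicate 3 (0.0339).

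With 6 mice per group, run as separate projects for the states, and counts per gene only, effects on single isoforms, effects of exercise apart from project and effects in single cell types were not resolved. Depth limits Nr4a2 most, with 30 counts in its lowest library.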
